A study of Mus musculus with 5 samples.

Results

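The genes of platelet-derived growth factor (PDGF) signalling described here are the ligand genes Pdgfa, Pdgfb, Pdgfc and Pdgfd and the receptor genes Pdgfra and Pdgfrb. They were chosen by name, and all 6 were found among the 18044 genes of the count table. The RNA came from cells of the pelvis-kidney junction of wild-type C57BL/6 mouse embryos at E18.5, pooled over embryos and sorted with an antibody against the ion channel HCN3. The study set HCN3-positive cells, which it calls urinary tract pacemaker cells, against HCN3-negative cells of the same junction, with 2 libraries labelled positive and 3 labelled negative. Libraries are named by their titles, as labelled positive 1 and 2 and labelled negative 1, 2 and 3, and since nothing states that they came from separate pools, a p-value covers the spread between libraries and may be technical. Levels are given as normalized counts, meaning that the reads of a library were divided by its size factor.

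PDGF ligands are secreted dimers that activate a pair of receptor tyrosine kinases on mesenchymal cells. PDGF-A and PDGF-C act mainly through PDGFRα, and PDGF-B and PDGF-D through PDGFRβ, although PDGF-B can bind both. In the developing kidney, PDGF-B from endothelium recruits the pericytes and mesangial cells that carry PDGFRβ, while stromal cells of the kidney and ureter carry both receptors.

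Total gene reads ranged from 24588864 to 39034478 per library. Hcn3 itself had 0 reads in the library labelled positive 1 and 29 to 116 reads in the other 4, and its labelled groups overlapped. A count of 0 there allows up to 4.23 normalized counts at 3 reads. Exons of Pklr, a gene on the opposite strand, overlap those of Hcn3, and without strand their reads cannot be told apart. The deposited fold column does not follow the labels. In 100% of its rows, within a relative tolerance of 0.01, it is the mean over positive 2 with negative 1 and 3, divided by the mean over positive 1 with negative 2. The pair in the divisor is called the first set below and the other 3 libraries the second set. Hcn3 had normalized counts of 0 and 32.2 in the first set and 41.9 to 103 in the second, without overlap. The exact permutation p was 0.1, the smallest possible, the limma adjusted p 0.178 and the authors' deposited adjusted p 0.604. Of all 16579 genes tested, 26.1% were likewise lower in the first set without overlap. The closest libraries of the sets, negative 2 and negative 3, had 29 and 45 reads of Hcn3. The column names leave the sets without an HCN3 status, although the deposited comparison is named as HCN3-negative against HCN3-positive. Which set it takes as which is not stated, and members are given both by label and by set. Leukocyte markers divided the libraries as the sets do: the summed level of 12 of them was 502025 and 551778 in the first set and 1193 to 2501 in the second.

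Both receptor genes were abundant in the 3 libraries of the second set and low in the 2 of the first, whichever label these carried. Pdgfrb (chromosome 18, 61045150 to 61085061, plus strand, mm10) encodes the receptor of mural and mesangial cells. The normalized counts were 671 (labelled positive 1), 10657 (labelled positive 2), 17778 (labelled negative 1), 740.3 (labelled negative 2) and 9311 (labelled negative 3). Pdgfra (chromosome 5, 75152292 to 75198215, plus strand) encodes the receptor widespread in fibroblasts and interstitial mesenchyme. For Pdgfra normalized counts were 304 (labelled positive 1), 4200.1 (labelled positive 2), 7173 (labelled negative 1), 483 (labelled negative 2) and 3324 (labelled negative 3). Each labelled group therefore held a low and a high library for both genes, and the groups overlapped. The highest library exceeded the lowest 26.5-fold for Pdgfrb and 23.6-fold for Pdgfra.

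**Figure D1:**
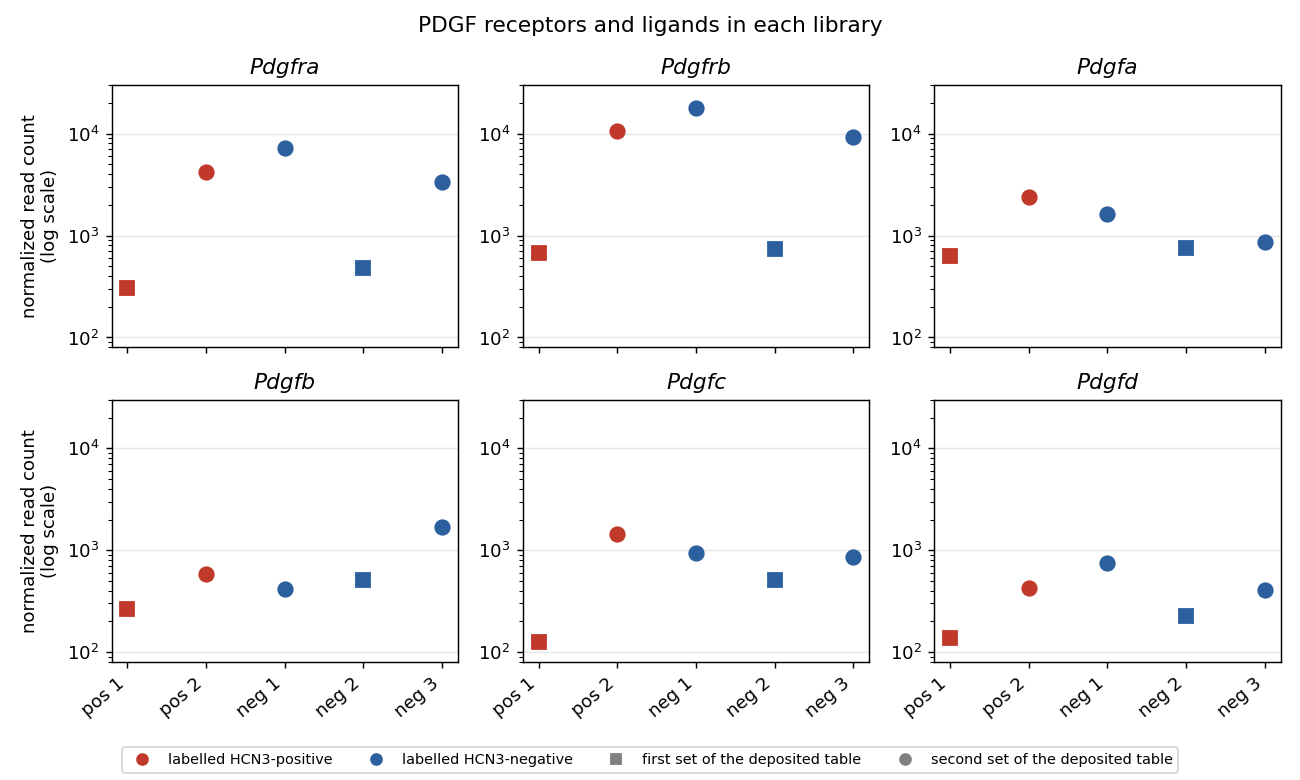
Normalized read count (log scale, vertical axis) of each receptor and ligand gene in each library (horizontal axis, by label). Points are single libraries, red where labelled positive and blue where labelled negative, squares for the first set and circles for the second. For Pdgfrb the squares lie at 671 and 740.3 and the circles at 9311 or above.

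The receptors did not differ between the labels in a way this design could detect. As a log2 fold change of positive-labelled against negative-labelled libraries, the value was -0.89 for Pdgfrb (SE 1.78, 95% interval -5.40 to 3.61) and -0.996 for Pdgfra (SE 1.57, -4.97 to 2.98), on the log2(normalized count + 1) scale in limma. The adjusted p was 1.00 for both. Of all 16579 genes limma called 0 by label (157 had an unadjusted p under 0.05) and edgeR 0, while DESeq2 called 1 higher and 9 lower. The exact 2-sided permutation test gave p = 0.7 and p = 0.6, where the smallest p that 10 splits allow is 0.1. With the set added as a term to the same limma fit, an alternative chosen after the data were seen, the difference by label was -0.22 for Pdgfrb (95% interval -0.98 to 0.54) and -0.41 for Pdgfra (-1.33 to 0.52). Both signs also depended on single libraries. Without the library labelled positive 1 the values by label were 1.10 for Pdgfrb and 0.89 for Pdgfra, and without the library labelled negative 1 that of Pdgfrb was 0.027.

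Between the sets the receptors differed far beyond the spread of libraries. Pdgfrb averaged 706 ± 49.0 (SD, n = 2) in the first set and 12582 ± 4550.0 (SD, n = 3) in the second, and Pdgfra 394 ± 126 (SD, n = 2) and 4899 ± 2018 (SD, n = 3). The exact permutation p by set was 0.1 for both, the smallest possible. The log2 fold change, first over second set, was -4.10 for Pdgfrb (SE 0.29, 95% interval -4.80 to -3.40, limma adjusted p = 0.000526) and -3.59 for Pdgfra (SE 0.38, -4.49 to -2.70, limma adjusted p = 0.00152). Of the 6 genes, these 2 passed as lower in the first set, where 9.88% of all 16579 genes tested did and 10.6% passed as higher. Both calls held with each library left out in turn, with limma adjusted p from 0.00100 to 0.0234 for Pdgfrb and from 0.00264 to 0.0305 for Pdgfra. The authors' deposited table gives the second set over the first as 17.8-fold for Pdgfrb (adjusted p = 2.50e-06) and 12.4-fold for Pdgfra (adjusted p = 0.000385). The summed level of 10 fibroblast and stroma markers was likewise 11133 to 11828 in the first set and 101321 to 212465 in the second. In bulk RNA, fewer cells of a type and less RNA per cell cannot be told apart, and the part of cell mixture in the receptor difference was not tested.

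The proportion of the receptors to each other varied little beside their levels. A ratio of reads within a library does not depend on its size factor. Pdgfra made up 31.2% of the summed reads of both receptors in the library labelled positive 1 (216 reads of Pdgfra and 476 of Pdgfrb, exact Clopper-Pearson 95% interval 27.8% to 34.8%) and 28.3% in that labelled positive 2 (27.6% to 28.9%). It made up 28.7% (28.2% to 29.3%), 39.5% (36.6% to 42.4%) and 26.3% (25.6% to 27.1%) in those labelled negative 1, 2 and 3. These intervals cover counting error only, since copies made by PCR are not independent molecules. The share was highest in the 2 libraries of the first set, although it also differed between these. The log2 ratio of Pdgfra to Pdgfrb was -1.24 ± 0.15 (SD, n = 2) by label in the positive and -1.14 ± 0.46 (SD, n = 3) in the negative libraries (exact permutation p = 0.9). It was -0.88 ± 0.37 in the first and -1.38 ± 0.09 in the second set (exact permutation p = 0.1, the smallest possible). That difference of 0.50 was 0.24 without negative 2 and 0.76 without positive 1.

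**Figure D2:**
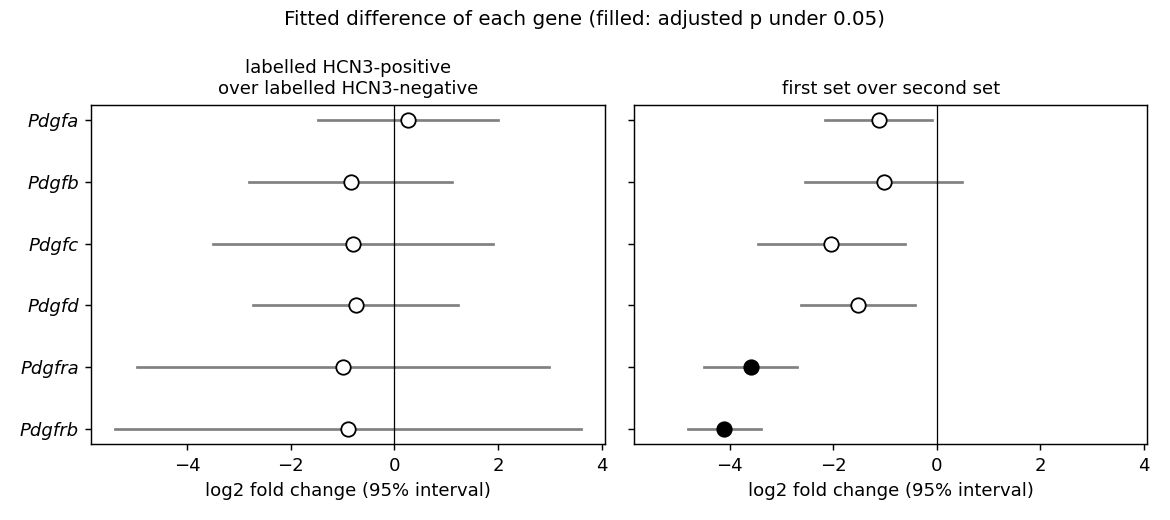
Fitted log2 fold change (horizontal axis) of each gene (vertical axis) by label (left) and by set of the deposited table (right). Points are limma estimates, bars their 95% intervals, and filled points have an adjusted p under 0.05: Pdgfra at -3.59 and Pdgfrb at -4.10 by set, and none by label.

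Pdgfa was the most abundant ligand per length in 4 of the 5 libraries. Pdgfa (chromosome 5, 138976014 to 138997370, minus strand) encodes a ligand of PDGFRα made largely by epithelia and muscle. For Pdgfa normalized counts were 627 (labelled positive 1), 2396 (labelled positive 2), 1633 (labelled negative 1), 756 (labelled negative 2) and 863 (labelled negative 3). The library labelled positive 2 was highest and that labelled positive 1 lowest, so the labels overlapped, with a log2 fold change of 0.26 (SE 0.69, exact permutation p = 0.7). By set the groups did not overlap, and the log2 fold change was -1.12 (SE 0.43, exact permutation p = 0.2), with a limma adjusted p of 0.122. Without the library labelled negative 3, whose 863 was the lowest of the second set, that value was -1.52 and passed (limma adjusted p = 0.0237).

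Pdgfc and Pdgfd encode ligands secreted in a latent form and activated by proteolysis. Both were lowest in the library labelled positive 1, as all 6 genes were. Pdgfc (chromosome 3, 81036416 to 81214040, plus strand) encodes a ligand of PDGFRα. For Pdgfc normalized counts were 127 (labelled positive 1), 1426 (labelled positive 2), 930.2 (labelled negative 1), 508 (labelled negative 2) and 858 (labelled negative 3). The 2 libraries labelled positive were thus its lowest and its highest. By label its log2 fold change was -0.79 (SE 1.07, exact permutation p = 0.8). By set its log2 fold change was -2.03 (SE 0.60, 95% interval -3.46 to -0.61, exact permutation p = 0.1), and the limma adjusted p of 0.0554 missed the threshold. The authors' deposited table has it 3.37-fold higher in the second set with an adjusted p of 0.0232, so that table calls 3 of the 6 genes lower in the first set, against 6.09% of all its genes lower and 8.1% higher. The size of the Pdgfc difference depended on single libraries: leaving out positive 1 gave -1.04 and leaving out negative 2 gave -3.03 (limma adjusted p of 0.188 and 0.0191).

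Pdgfd (chromosome 9, 6168584 to 6378850, plus strand) encodes a ligand of PDGFRβ. For Pdgfd normalized counts were 137 (labelled positive 1), 429.5 (labelled positive 2), 743 (labelled negative 1), 225 (labelled negative 2) and 407 (labelled negative 3). It was highest in the library labelled negative 1, as both receptors were. Its log2 fold change was -0.75 by label (SE 0.78, exact permutation p = 0.5) and -1.52 by set (SE 0.47, exact permutation p = 0.1, limma adjusted p = 0.0622). DESeq2 on the recovered reads called it lower in the first set (adjusted p = 0.00981), along with both receptors, Pdgfa (0.0436) and Pdgfc (0.0245), which is 5 of 6 beside 13.7% of all genes lower and 13.6% higher.

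Pdgfb followed neither the labels nor the sets. Pdgfb (chromosome 15, 79995874 to 80014977, minus strand) encodes the ligand of endothelium and platelets. For Pdgfb normalized counts were 262 (labelled positive 1), 588 (labelled positive 2), 413 (labelled negative 1), 505 (labelled negative 2) and 1686 (labelled negative 3). The library labelled negative 3 stood above the other 4, which lay between 262 and 588, and a first-set library exceeded a second-set one. The log2 fold change was -0.84 by label (SE 0.77, exact permutation p = 0.6) and -1.03 by set (SE 0.64, exact permutation p = 0.4, limma adjusted p = 0.317). Without the library labelled negative 3 these values were -0.22 and -0.44. In that library the summed level of 10 endothelial markers was 92428, against 6479 to 43212 in the others, and that of 6 podocyte markers 307419, against 6662 to 48978. In positive 1, positive 2, negative 1 and negative 2 the endothelial sums were 6479, 25652, 43212 and 6851, in another order than Pdgfb. The part of these cells in the level of Pdgfb was not tested.

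Counted over the 6 genes, 0 had labelled groups that did not overlap, where 5.34% of all genes tested were higher and 5.44% lower without overlap. By set, 5 of the 6 were lower in the first set without overlap, against 26.1% of all genes, while 23.5% were higher without overlap. The median log2 fold change by label was -0.03 over all genes tested. By set it was -0.07, and each of the 6 genes had a lower value than that.

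Per kilobase of exon, ligands exceeded receptors in the first set and receptors exceeded ligands in the second. The summed level of the 4 ligands was 332 and 535 normalized counts per kilobase in the first set (labelled positive 1 and negative 2), beside 153 and 183 for both receptors. In the second set (labelled positive 2, negative 1 and negative 3) the ligands summed to 1326, 1041 and 979.6 and the receptors to 2364, 3961 and 2031. The ratio of ligands to receptors was 2.55 ± 0.53 (SD, n = 2) in the first set and 0.435 ± 0.154 (SD, n = 3) in the second. Per kilobase, Pdgfrb was 2.81 to 5.13 times Pdgfra over the 5 libraries. That ratio depends on the transcript assumed, since the exons of all annotated Pdgfra transcripts cover 10024 bases and its longest coding transcript has 6834, with which it was 1.93 to 3.53.

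Among the ligands, Pdgfa made up 60.5%, 57.9%, 50.3% and 45.3% of the summed level per kilobase in the first 4 libraries by title (positive 1 and 2, negative 1 and 2). In that labelled negative 3 the order changed, with Pdgfb at 41.4% and Pdgfa at 28.3%. The share of Pdgfc was 7.50% in the library labelled positive 1 and 17.2% to 21.1% elsewhere, and that of Pdgfd 22.6% in the library labelled negative 1 and 10.3% to 13.4% elsewhere.

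**Figure D3:**
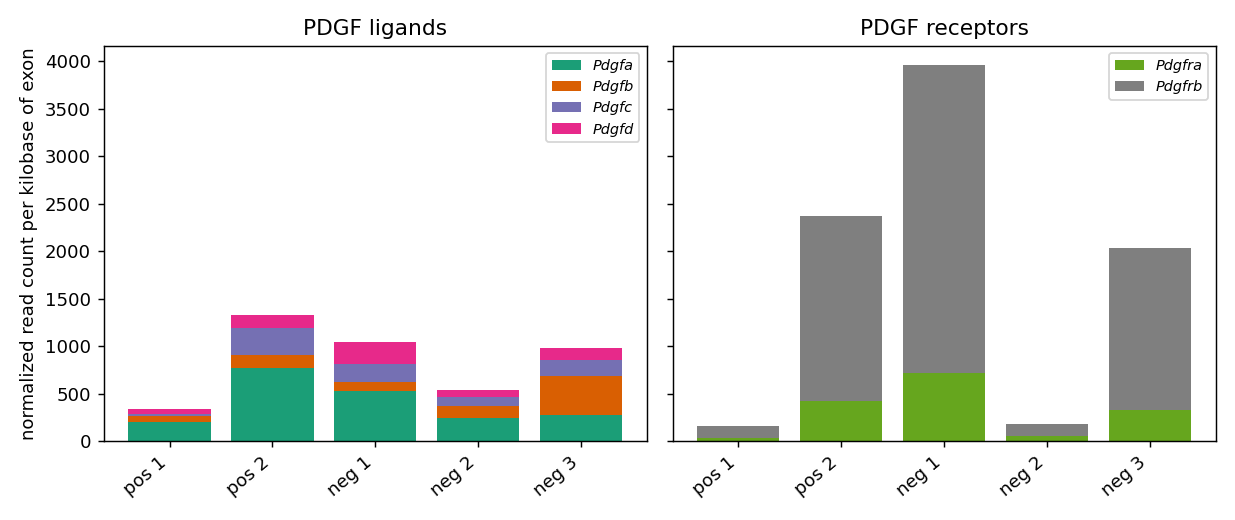
Normalized read count per kilobase of exon (vertical axis) summed over ligand genes (left) and receptor genes (right) in each library (horizontal axis, by label). Colours are genes. The receptor bars reach 153 and 183 in the libraries labelled positive 1 and negative 2 and at least 2031 in the others, while the ligand bars range from 332 to 1326.

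The start regions of Pdgfra and Pdgfc are shown because these were the genes called by the authors' table for which a sequence could be printed. RefSeq windows (GRCm38.p6, the build mm10) matched 4 of the 6 genes. The 250 bases before the start are chr5:75152001-75152250 for Pdgfra and chr3:81036166-81036415 for Pdgfc, both on the plus strand and free of annotated exons in GENCODE M21. Capitals mark an E-box in Pdgfra and a CArG box in Pdgfc.
Pdgfra: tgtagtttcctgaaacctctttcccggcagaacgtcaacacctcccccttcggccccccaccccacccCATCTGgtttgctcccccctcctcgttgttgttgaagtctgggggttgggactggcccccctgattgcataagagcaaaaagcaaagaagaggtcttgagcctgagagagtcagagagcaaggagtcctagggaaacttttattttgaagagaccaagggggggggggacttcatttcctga
Pdgfc: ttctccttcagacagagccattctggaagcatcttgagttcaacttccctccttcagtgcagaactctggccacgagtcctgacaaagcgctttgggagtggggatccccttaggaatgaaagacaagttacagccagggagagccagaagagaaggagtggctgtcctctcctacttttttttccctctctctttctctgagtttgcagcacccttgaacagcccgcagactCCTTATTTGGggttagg
The E-box (CANNTG, the same on both strands) begins 182 bases before the RefSeq start of Pdgfra, and such letters stand in 66.2% of all 32851 windows of this length. The CArG box, the motif of serum response factor, begins 17 bases before the start of Pdgfc and is found in 1.47% of windows. A GC box (letters GGGCGG, in 32.7% of windows) was in neither window on either strand. Neither was a TATA box (letters TATAAA, in 12.4%), a box of the letters CCAAT (33.8%) or an AP-1 site (letters TGANTCA, in 6.75%). These matches describe the letters alone, and no binding was measured.

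Markers of mesenchymal cell types were lower in the first set, as the receptors were. All 10 fibroblast and stroma markers, 7 of 8 pericyte and mesangium markers and all 6 smooth muscle markers passed in limma as lower in the first set. Their median log2 fold changes were -3.64, -3.06 and -3.80, and 9.88% of all genes tested passed as lower. The collagen gene Col3a1 had 5149 and 5733 in the first set and 42595 to 101462 in the second, and the vascular potassium channel subunit gene Abcc9 366 and 431 against 4152 to 7082. Acta2, the smooth muscle actin, had 2568 and 1549 in the first set and 9258 to 57079 in the second. Summed levels were 3253 to 4284 in the first set and 26109 to 49264 in the second for pericyte and mesangium, and 3246 to 5421 and 19556 to 125332 for smooth muscle. No marker of these 3 lists was at 0 in any library.

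Endothelial and podocyte markers were also lower in the first set, with 8 of 10 and 5 of 6 passing in limma, beside 9.88% of all genes. All 12 leukocyte markers passed as higher there, beside 10.6% of all genes, with a median log2 fold change of 8.23. Lyz2, the macrophage lysozyme, had 166817 and 99497 in the first set and 312 to 610 in the second. Of 10 epithelial markers 0 passed in either direction, and the summed level was 27713 to 47446 in the first set and 14736 to 47797 in the second. Of 6 megakaryocyte and platelet markers Pf4 was higher and Gp1bb, which had 0 reads in both libraries of the first set, was lower. Pf4 had 10328 and 21971 in the first set and 31.9 to 73.5 in the second. With so few genes, a count of 1 in each direction is near the shares over all genes. Ppbp, a platelet chemokine, was at 0 in positive 2 and negative 1, and Gp9 in negative 1. By label 0 markers of these lists passed in limma, as was the case for all genes. Of the 10 epithelial markers 9 had a log2 fold change above 0 by label, with a median of 0.97, and 5 were higher in both positive-labelled libraries than in any negative-labelled one, where 5.34% of all genes were. Summed over the list, the level was 47446 in positive 1, 47797 in positive 2 and 14736 to 40192 in the negative-labelled libraries.

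**Figure D4:**
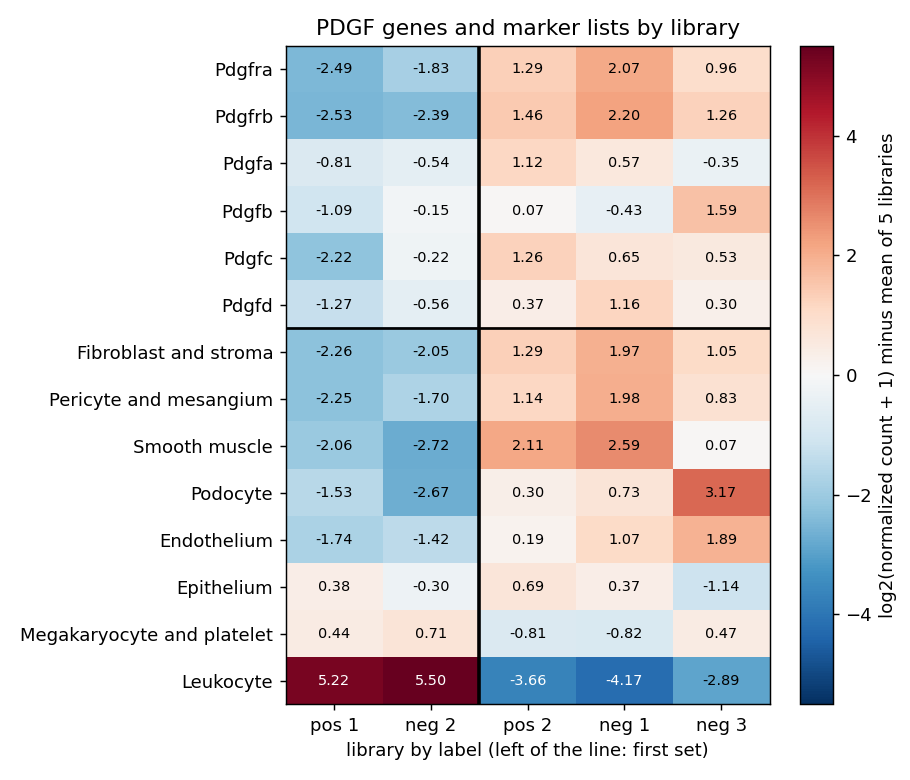
Mean log2(normalized count + 1) of each PDGF gene (upper rows) and of each marker list (lower rows) in each library (columns, by label), minus the mean of the 5 libraries. Shades of red stand for higher and of blue for lower values, and the vertical line parts the first set from the second. Pdgfra lies at -2.49 and -1.83 in the first set and the fibroblast and stroma list at -2.26 and -2.05.

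Of 8 genes for ligand activation and co-receptors, limma called 3 lower and 1 higher in the first set, beside 9.88% of all genes lower and 10.6% higher, so that 1 higher gene of 8 is near the share over all genes. Plat, the tissue plasminogen activator that cleaves PDGF-C, had 1276 and 1441 in the first set and 7629 to 33823 in the second, a log2 fold change of -3.28 (SE 0.60). Sparc, a matrix protein that binds PDGF-B, had 4746 and 6238 in the first set and 40159 to 70275 in the second, and the protease gene Htra1 was the other gene called lower. Lrp1, an endocytic receptor that associates with PDGFRβ, was higher, with 12667 and 12921 in the first set and 2480 to 4834 in the second. Nrp1, a co-receptor, did not pass and had 12798 and 18904 in the first set and 14183 to 24559 in the second.

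Of 29 adaptors and enzymes downstream of the receptors, 7 were called higher and 6 lower in the first set, where 10.6% and 9.88% of all genes were, with a median log2 fold change of 0.08. The abundant ones included the kinase gene Akt1, with 8707 to 10844 over the 5 libraries, and the adaptor gene Crk, with 7480 to 9861, and neither passed. Those called higher included Grb2, Pik3cb, Stat3, Stat5a, Stat5b and Map2k1, and those called lower were Shc1, Plcg1, Yes1, Gab1, Nck2 and Akt2.

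Of 13 negative regulators 4 were called higher and 3 lower in the first set, against the same 10.6% and 9.88% of all genes. The phosphatase genes Ptpn1, Ptprj and Dusp6 and the ubiquitin ligase gene Cbl were higher, Dusp6 with 12674 and 18485 in the first set and 3832 to 5957 in the second. The feedback inhibitor genes Spry1 and Spry4 and the adaptor gene Grb10 were lower, Spry1 with 801 and 1969.9 in the first set and 5129 to 7638 in the second.

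Among 7 class III receptor kinases and their ligands, limma called Csf1r and Flt3l higher and Kitl lower in the first set. Of all genes 10.6% were called higher and 9.88% lower, and with so few genes the 1 lower gene is near that share. Csf1r, the receptor of macrophage colony-stimulating factor, had 92159.9 and 139878 in the first set and 422 to 546 in the second, with a log2 fold change of 7.94. Kit, the stem cell factor receptor, had 7615 and 1712 in the first set and 1979 to 4101 in the second and did not pass. Of 8 VEGF ligand and receptor genes, 6 were called lower in the first set, among them Kdr, the main VEGF receptor of endothelium. Kdr had 1201 and 1467 in the first set and 4575 to 18853 in the second. Kdr and Flt1 are also counted among the endothelial markers, and Csf1r among the leukocyte markers. By label 0 genes of these 5 lists passed, with median log2 fold changes of -0.86 for activation and co-receptors, -0.04 for adaptors and enzymes, -0.26 for negative regulators, 0.34 for class III kinases and -0.81 for the VEGF list.

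Over the 5 libraries the 2 receptors were more like each other than like any ligand. Likeness was measured as the root mean square difference between 2 genes' log2 levels, each centred on its own mean, so that 0 means parallel profiles. It was 0.30 between Pdgfra and Pdgfrb, and between 0.98 and 1.79 from either receptor to a ligand. The 3 genes nearest to Pdgfra were Fbln5, an elastic fibre protein gene (0.053), Egflam (0.098) and the transcription factor gene Tshz3 (0.10). Fbln5 had 448 and 729 in the first set and 4924 to 9722 in the second. The 3 nearest to Pdgfrb were Col6a3 (0.20), Rarres2 (0.21) and Col6a2 (0.22), of which Col6a3 and Col6a2 encode collagen VI chains.

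The ligands had other neighbours. Pdgfa was nearest to Gnaz (0.067), Doc2a and Serf1, Pdgfb to Smim1 (0.13), Prr5 and Dennd3, Pdgfc to Fam83d (0.10), Faxc and Ankrd13b, and Pdgfd to Fgfr3 (0.099), Ecm1 and Clip4. Smim1 had 2622 in the library labelled negative 3 and 476 to 961 in the others. With 5 libraries many genes lie close: 34 of those compared were within 0.25 of Pdgfa, 5 of Pdgfb, 11 of Pdgfc, 30 of Pdgfd, 17 of Pdgfra and 7 of Pdgfrb.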

How the data were processed

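The submitters' processing notes name the build mm10 and, in alphabetical order, bcl2fastq 2.17, cutadapt 1.8, DESeq 1.18.0, FastQC 0.11.2, HTSeq 0.6.1p2, TopHat2 2.0.11 and Trim Galore 0.40. The gene models counted were not given in the sources used here. Libraries were made with Clontech and Nextera XT kits, per the labels' protocols, with no statement that strand is kept, so reads of genes on the opposite strand over exons of Pdgfa, Pdgfc, Pdgfra and Hcn3 cannot be told apart from theirs. The deposited table holds, as a signal for each library, read counts that the authors divided by a size factor. Per the file headers it also holds a mean over all libraries, a fold between groups as a ratio and its log2. It holds a p-value and its adjusted form too, and all these are the authors' own.

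Each library's smallest non-zero value was taken as 1 read, which made 100% of values whole within 0.01. A floor of 3 reads equals 2.23 to 4.23 normalized counts. The 3 summary rows of the read counter were left out of library sizes and tests: 8.58% to 14.0% of reads lay in no gene, 0.792% to 2.32% were ambiguous and 13.5% to 18.7% did not align uniquely. Every pair of libraries differed beyond sampling noise (chi-square over degrees of freedom 98.3 to 743).

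Groups were compared on log2(normalized count + 1) with the trend option of limma 3.58.1 (R 4.3.3). It covered the 16579 genes whose mean reached 5, with Benjamini-Hochberg adjustment over them all and a threshold of 0.05. The fold change on that scale understates the change of low genes. The script was tested on simulated data. edgeR 4.0.16, DESeq2 1.42.0 and limma-voom on the recovered reads, TMM scaling, pseudocounts of 0.5 and 5, no filter, a mean of at least 20, each library left out, and a replicate block were alternatives. The sets were derived from which libraries' means the fold column divides. Chosen after the data were seen were a fit with the set as a term, lengths of the longest coding transcript, and the exact test of the sets. Exons and positions come from GENCODE M21. The members and lists were chosen with earlier results of these data known. Genes named are the members, Hcn3, the 4 most abundant of each list and the 3 genes nearest to each member among those with a mean of at least 50. Some genes that this rule names are not reported here. List genes outside that rule are named where a count was small, after their values were seen. Adgre1 is listed under its older symbol Emr1.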

Additional observations from a re-analysis of the deposited data

How the results depend on the processing

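By label, limma called 0 genes higher and 0 lower (157 with an unadjusted p under 0.05), and so it was with each library left out (0 to 0), with edgeR (165 unadjusted), with the replicate block (26 unadjusted) and with the set as a term (544 unadjusted). DESeq2 (464 unadjusted) made 1 call higher and 9 calls lower. With each library left out the unadjusted count was 48 to 1419, the lowest without negative 3 and the highest without positive 2. The log2 fold change of Pdgfc by label turned from -0.79 in limma to 0.060 with edgeR and 0.021 with DESeq2. Leaving out each library in turn gave log2 fold changes by label from -0.70 to 1.23 for Pdgfa, -1.43 to -0.22 for Pdgfb, -2.54 to 0.95 for Pdgfc, -1.57 to 0.071 for Pdgfd, -2.89 to 0.89 for Pdgfra and -2.89 to 1.10 for Pdgfrb, and a difference in the log2 ratio of Pdgfra to Pdgfrb from -0.28 to 0.16. The deviations of same-numbered libraries from the means of their labelled groups correlated at -0.53 and -0.69 over genes. Same-numbered libraries lie in different sets, so these values cannot tell whether the sample number of the titles pairs the libraries. With that number as a replicate block the log2 fold change by label was 0.14 for Pdgfa, -0.22 for Pdgfb, -0.69 for Pdgfc, -0.75 for Pdgfd, -0.72 for Pdgfra and -0.44 for Pdgfrb, and none passed.

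By set, limma called 1758 genes higher and 1638 lower in the first set. With limma-voom 851 were lower and 1750 higher. Leaving out each library gave 782 to 1650 higher and 645 to 1722 lower: without positive 1, positive 2 or negative 1 the lower calls were 726, 746 and 645, and the higher ones 782, 1146 and 1142. Pdgfra and Pdgfrb passed under every alternative run, with each library left out in turn giving -3.93 to -3.26 and -4.29 to -3.82. Pdgfa passed with DESeq2 (-1.24) and ranged from -1.52 to -0.79 with each library left out. Pdgfc passed with DESeq2 (-1.75) and with a pseudocount of 5 (-2.01), and ranged from -3.03 to -1.04. Pdgfd passed with DESeq2 (-1.54) and ranged from -1.88 to -1.17. Pdgfb passed under none, from -1.50 to -0.44, and the difference in the log2 receptor ratio ranged from 0.24 to 0.76. With the longest coding transcript as length, the ratio of ligands to receptors in the first set was 3.23, and that of Pdgfrb to Pdgfra was 2.35 in the first and 3.28 in the second set, against 3.42 and 4.77 with all exons. The cause of these changes was not tested. TMM scaling moved the median of all genes by 0.0055 by label and by -0.033 by set (log2).

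The levels of Pdgfc and Pdgfd in the library labelled positive 1 rest on 90 and 97 reads and those of Pdgfb and Pdgfra on 186 and 216. By label the SE of Pdgfrb was 1.78, and 0.31 with the set as a term. The titles and the deposited comparison divide the libraries differently, and which is right cannot be told apart here.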
